A study of Homo sapiens with 12 samples.

Results

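The genes described here are the human cluster histone genes, the protein-coding genes whose symbols begin with HIST1H, HIST2H, HIST3H or HIST4H. The rule took every such row of the expression table, 72 of 58219 rows with 71 different symbols, because HIST1H3D has 2 rows. By class there were 6 linker histone H1 genes, 17 H2A, 18 H2B, 16 H3 and 15 H4 genes. The study sequenced RNA from H9, an established human embryonic stem cell line, at day 0, day 4 and day 8 of neural differentiation. Cells were wild type or SOX21-/-, SOX21 being a transcription factor of the neural lineage, and the design text asks what SOX21 does in early neural differentiation. Each of the 6 groups had 2 libraries, 12 in all. The sample names carry a line label, WT1 or WT2 in wild type and S13 or S23 in SOX21-/-. Whether these are separate clones or cultures of 1 clone is not stated, so every p-value below measures only the spread between such libraries. No other allele or agent is named for any group.

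Cells make most of their core and linker histones during S phase from these clustered, intronless genes. Their mRNAs are the main metazoan mRNAs without a poly(A) tail, ending instead in a short hairpin that the protein SLBP binds. Some cluster genes also make longer polyadenylated mRNAs, which have been described in differentiating or non-dividing cells, and replication-independent variant histone genes elsewhere in the genome make ordinary polyadenylated mRNAs. The labels state that RNA was enriched by poly(A) tails before library preparation, so a transcript that ends at the hairpin was open to capture only as carry-over or through a tail at another end. A level given here is therefore the level in poly(A)-enriched RNA, and a change of total histone mRNA and a change of its tailed share cannot be told apart.

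The annotated 3′ ends show which of these forms each gene model holds. A script looked in the GENCODE release 29 transcripts (GRCh38) of 71 matched members for the hairpin written as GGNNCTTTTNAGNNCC on the sense strand. The sites below belong to members that carried much of the signal or differed between libraries, with the hairpin and its loop in capitals and 5 bases either side.

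HIST1H4J: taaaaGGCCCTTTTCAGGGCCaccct
HIST2H4A: ccaaaGGCCCTTTTTAGGGCCgacca
HIST4H4: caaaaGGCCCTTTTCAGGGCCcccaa
HIST2H2BE: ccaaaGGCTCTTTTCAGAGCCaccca
HIST1H2AC: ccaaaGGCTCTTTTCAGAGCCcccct
HIST1H2BH: ccaaaGGCTCTTTTCAGAGCCactta
HIST1H2BD: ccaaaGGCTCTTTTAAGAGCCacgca

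The first strand of the stem is GGCCCT in the 3 H4 sites shown and GGCTCT in the H2A and H2B sites. The HIST1H4J site lies at chr6:27824454-27824479 on the plus strand, and its transcript ends 6 bases past the hairpin. The HIST1H2BD site lies at chr6:26158582-26158607 on the plus strand, and 1 of its transcripts ends 39 bases past it. The other models run on well beyond it, by 1167 bases for HIST2H4A (chr1:149833027-149833052, plus strand), 1729 bases for HIST2H2BE (chr1:149886183-149886208, minus strand), 1128 bases for HIST1H2AC (chr6:26124664-26124689, plus strand) and 1640 bases for HIST1H2BH (chr6:26252050-26252075, plus strand). Each of those 4 longer models has the polyadenylation hexamer AATAAA in its last 50 bases, and so do the HIST1H4J transcript and the HIST1H2BD transcript that ends near the hairpin. The HIST1H4J transcript ends too soon after its hairpin to hold the hexamer there, so its hexamer lies before the hairpin. The longest HIST4H4 model runs 1510 bases past its hairpin (chr12:14770719-14770744, minus strand) without that hexamer.

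Over the 71 matched members, 9 models ended within 100 bases of the hairpin and 22 ran at least 100 bases past it. A further 34 held coding sequence alone, so that neither kind of 3′ end is represented, and 6 held untranslated sequence but no match. The 9 genes ending near the hairpin held 38.5% of the members' mean TPM (a share of all transcripts, per transcript length), largely through HIST1H4J. The 22 extended models held 25.2% and the 34 coding-only models 33.5%. The order of the first and last of these shares is uncertain, since HIST1H4J (mean 46.5 of the 64.9 TPM of its set) shares 81.2% of its 50-base windows with other genes, chiefly the coding-only HIST1H4K. No library was made without that selection, so the tailed share of any gene was not measured.

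The promoters of the classes carried different motifs. RefSeq promoter windows (GRCh38.p14, 250 bases before to 50 after the start) matched 57 members. CCAAT, on either strand, was in all 6 H1, 16 H2A, 11 H2B and 11 H3 windows but in 3 of 13 H4 windows, against 34.6% of all promoters. TATAAA was in 66.7% of the members' windows and in 11.5% of all promoters. The octamer ATTTGCAT was in 11 of 16 H2A and 8 of 11 H2B windows, in none of the other members' windows, and in 1.77% of all promoters. The windows of 8 H2A and H2B pairs overlapped, so 1 octamer can be counted for both genes of a pair. Among H2A genes only HIST1H2AA, HIST1H2AB, HIST1H2AC, HIST1H2AD and HIST1H2AM held it in the last 150 bases before the start, whereas all 8 H2B genes did. A match is a description of the letters in the window and not a measured binding site. The stretches below, the last 150 bases before the start of 3 genes with contrasting time courses, show the motifs of either strand in capitals.

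HIST2H2AC: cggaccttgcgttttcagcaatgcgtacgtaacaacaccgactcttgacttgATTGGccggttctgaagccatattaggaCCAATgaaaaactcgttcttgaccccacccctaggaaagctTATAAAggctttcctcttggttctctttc
HIST2H2BE: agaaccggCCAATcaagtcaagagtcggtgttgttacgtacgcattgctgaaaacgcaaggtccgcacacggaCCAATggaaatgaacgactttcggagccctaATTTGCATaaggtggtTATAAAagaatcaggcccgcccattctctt
HIST1H4J: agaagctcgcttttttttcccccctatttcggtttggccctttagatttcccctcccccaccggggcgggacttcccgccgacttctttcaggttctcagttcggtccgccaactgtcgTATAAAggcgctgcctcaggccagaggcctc

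The HIST2H2AC stretch is chr1:149886768-149886917 on the plus strand and the HIST2H2BE stretch is chr1:149886683-149886832 on the minus strand, so the genes are divergent and their stretches overlap. They are 1 of 8 H2A and H2B pairs whose promoter windows overlapped. The HIST1H4J stretch, chr6:27823942-27824091 on the plus strand, holds TATAAA but neither CCAAT nor the octamer.

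The libraries differed more by day than by genotype. SOX21 itself had 1.26 to 1.84 TPM at day 0, 143 to 166 TPM at day 4 and 69.9 to 253 TPM at day 8. Its day 8 values were 129 TPM (WT1), 100 TPM (WT2), 253 TPM (S13) and 69.9 TPM (S23). The type of lesion is not stated, and a gene-level value does not check a small one, so the genotypes below stand as labelled. Summed pluripotency markers (6 genes) were at 2510 to 2684 TPM at day 0 and 707 to 837 TPM at day 8, while 7 neural progenitor markers went from 101 to 113 TPM to 1433 to 1667 TPM. Most of the day 8 pluripotency sum was LIN28A, which went up from 148 to 176 TPM at day 0 to 608 to 701 TPM at day 8. POU5F1 went from 1507 to 1744 TPM to 0.283 to 1.41 TPM, and NANOG, TDGF1 and ZFP42 were at most 0.384 TPM at day 8. Mesoderm markers stayed at or below 2.05 TPM and endoderm markers at or below 0.412 TPM in every library, and neural crest markers at or below 5.20 TPM. Summed neuron markers (6 genes) were lower in SOX21-/-, at 141 and 160 TPM against 254 and 278 TPM at day 4 and at 279 and 200 TPM against 371 and 364 TPM at day 8 (S13 and S23 against WT1 and WT2), and 1 of the 6 passed at day 8. Their part in the genotype differences below was not tested. Nuclear protein-coding genes held 55.9 to 56.4% of TPM at day 0 and 83.5 to 87.1% later, with mitochondrial tRNAs at 6.57 to 8.40% at day 0 and at most 0.0713% later. Since TPM shares 1 total, this difference in makeup moves with every step from day 0, and the median of all genes tested was 0.91 higher at day 4 in wild type (log2 of TPM + 1).

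Cluster histone transcripts were scarce throughout in this poly(A)-enriched RNA. The 72 genes summed to 52.1 to 65.1 TPM at day 0, 202 to 303 TPM at day 4 and 158 to 249 TPM at day 8. Every library of days 4 and 8 was above every day 0 library, and days 4 and 8 overlapped. With median-of-ratios scaling day 8 (105 to 171) overlapped day 0 (101 to 126), while day 4 (160.0 to 247) stayed above it. The 12 replication-independent variant genes, which include H2AFZ and H3F3B, summed to 1234 to 1310 TPM, 4999 to 5600 TPM and 4595 to 5545 TPM on the same days. The variant sum thus exceeded the cluster sum in every library. Variant mRNAs carry the tail that was selected and most cluster mRNAs do not. The order is therefore no comparison of transcript abundance in the cells.

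Between the classes the levels at each day differed. H4 genes summed to 16.7 to 29.2 TPM at day 0, 87.5 to 156 TPM at day 4 and 63.7 to 107 TPM at day 8. H2B genes summed to 12.6 to 16.2, 47.0 to 66.8 and 24.8 to 42.6 TPM. H2A genes summed to 12.9 to 17.8, 39.0 to 52.6 and 44.8 to 66.4 TPM. H3 genes were lower, at 2.04 to 4.10, 9.28 to 20.4 and 11.5 to 25.6 TPM, and H1 genes were at 3.46 to 4.10, 6.35 to 8.00 and 8.94 to 14.5 TPM. The day 4 mean was 1.93 times the day 0 mean for H1, 3.03 for H2A, 3.88 for H2B, 4.75 for H3 and 5.0 for H4, and no day 4 sum overlapped a day 0 sum of its class. From day 4 to day 8 the ratios were 1.65 for H1, 1.17 for H2A, 0.565 for H2B, 1.08 for H3 and 0.722 for H4. All day 8 H1 sums lay above, and all day 8 H2B sums below, every day 4 sum of the class. The day 4 ratios depended on the scale. Per nuclear protein-coding TPM they were 1.25, 1.96, 2.51, 3.07 and 3.23 in the same order, and with median-of-ratios scaling 0.764, 1.20, 1.54, 1.90 and 1.99. The order of the classes stayed, but the direction for H1 turned, and that for H3 from day 4 to day 8 turned as well, at 0.948.

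**Figure D1:**
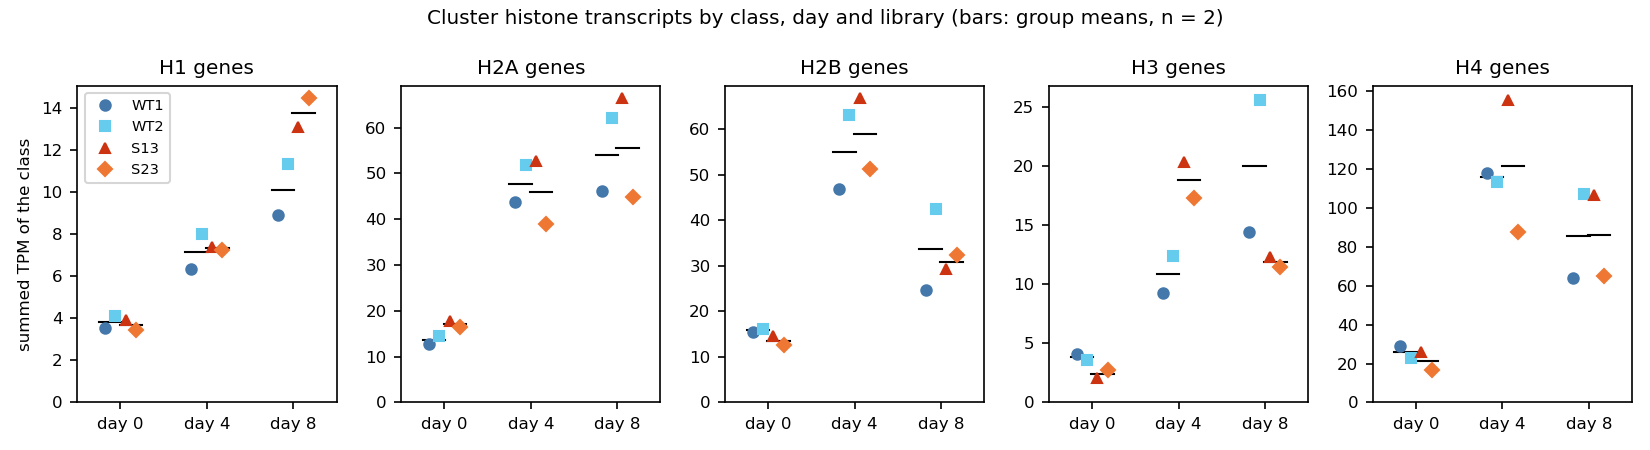
Summed TPM (vertical axes, each from 0 with its own scale) of the H1, H2A, H2B, H3 and H4 genes by day, with 1 point per library and black bars for the mean of 2 libraries. H4 reaches 156 TPM in the S13 library of day 4, H1 keeps its highest values at day 8, and H2B at day 8 lies below every day 4 library.

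Single genes dominated most classes. HIST1H4J gave 61.2% of H4, HIST1H1C 62.4% of H1 and HIST1H2BK 46.2% of H2B mean TPM, while HIST2H2AC gave 24.7% of H2A and HIST1H3F 24.7% of H3. Of the 72 genes, 48 reached 1 TPM in 2 or more libraries and so entered the test (3 H1, 15 H2A, 10 H2B, 9 H3 and 11 H4). The other 24 were not tested, 8 of them listed at 0 in every library. The highest value of the remaining 16 in any library ranged from 0.114 to 3.56 TPM. Genes that passed only because of 1 day had to differ between days, so counts over the 48 are read beside those over all genes.

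From day 0 to day 4, a smaller share of the tested histone genes was called higher than of all genes tested. In wild type 13 of 48 rose and 1 fell, 29.2% called against 65.7% of all 24248 genes tested (limma, Benjamini-Hochberg adjusted p below 0.05). Upward calls alone were 27.1% of the 48 and 54.3% of all genes. In SOX21-/- 14 rose and 1 fell, 31.3% against 60.6%, with upward calls at 29.2% and 48.1%. The 1 downward call in each genotype, HIST1H4K, was of a gene that reached the filter only through day 0. The median log2 change of the 48 was 0.72 in wild type and 0.66 in SOX21-/-, beside 0.91 and 0.72 over all genes. The split of higher and lower calls moved with scaling. It was 4 and 3 in wild type with median-of-ratios scaling and 6 and 3 with quantile normalization, and in SOX21-/- 4 and 1 with median-of-ratios scaling. All 4 day 4 libraries were above all 4 day 0 libraries for 21 of the 48, or 43.8%, and for 54.2% of all genes tested. Length moved with this step too. Of 42 tested protein-coding genes outside the families with a longest transcript of up to 500 bases, 21.4% rose in wild type, against 68.3% of 11784 genes over 2000 bases. Most members also lay near the filter, where log2(TPM + 1) understates changes. The part of length and of low level in the histone counts was not tested.

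By class, 1 of 3 tested H1 genes, 2 of 15 H2A, 4 of 10 H2B, 2 of 9 H3 and 4 of 11 H4 rose in wild type, and 2, 2, 4, 2 and 4 in SOX21-/-. Of all genes, 54.3% rose in wild type and 48.1% in SOX21-/-, and the share that rose in both is not given. The same 11 genes rose in both genotypes, namely HIST1H1E, HIST1H2AG, HIST1H2BD, HIST1H2BH, HIST1H2BK, HIST1H3E, HIST1H3F, HIST1H4I, HIST1H4J, HIST2H2AC and HIST4H4. Of these, HIST1H1E in SOX21-/- lost its call in 5 of 10 other settings and 6 of 12 leave-outs (highest adjusted p = 0.488, limma). HIST2H2BE and HIST2H4B passed in wild type alone and HIST1H1C, HIST1H2BJ and HIST2H4A in SOX21-/- alone. No difference between the genotypes in this step passed the test for any histone gene, where 0.408% of all genes did. An unadjusted p below 0.05 was seen for 3 histone genes, with no share of all genes to set beside it.

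**Figure D2:**
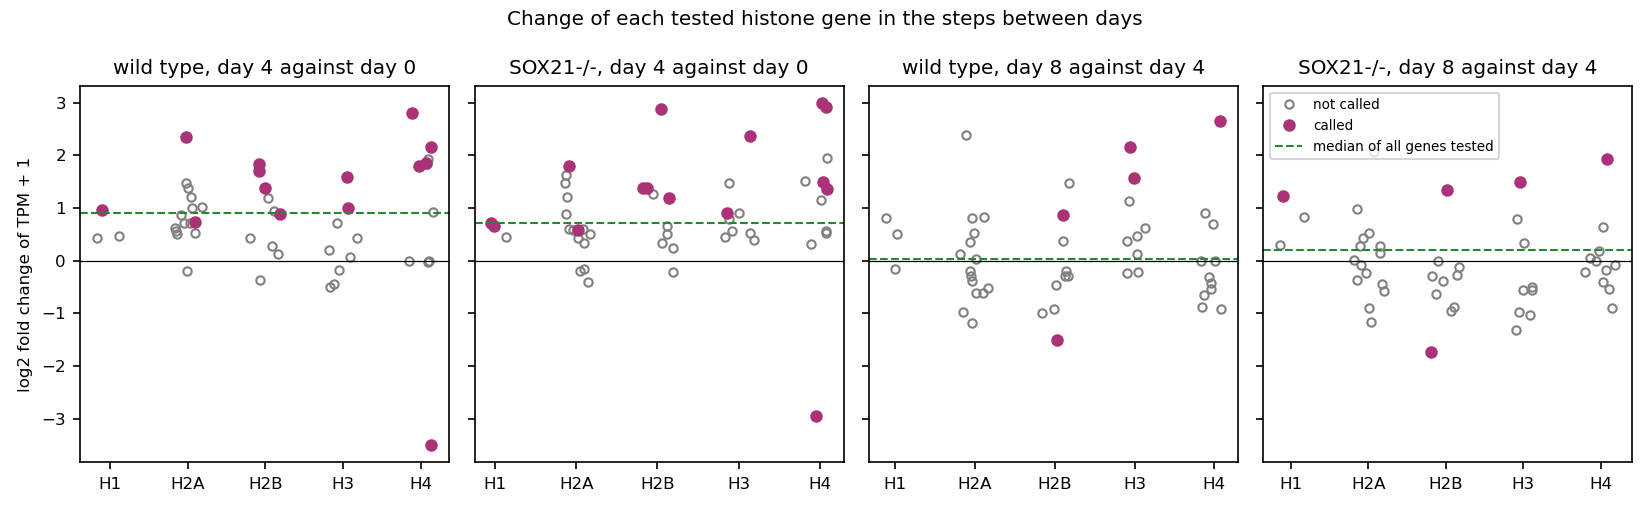
Log2 fold change of TPM + 1 for each of the 48 tested histone genes by class, for 4 steps between days. Filled points passed an adjusted p of 0.05, open points did not, and the dashed line is the median over all 24248 genes tested, at 0.91 for wild type and 0.72 for SOX21-/- in the first step.

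H4 genes encode the most conserved core histone, and HIST1H4J led them. Its level was 11.2 and 10.6 TPM at day 0 in WT1 and WT2, and 14.3 and 5.23 TPM in the SOX21-/- pair S13 and S23. By day 4 it stood at 86.3 and 77.8 TPM in wild type and 92.1 and 63.6 TPM in SOX21-/-, and at day 8 it was 43.9, 71.5, 40.7 and 40.5 TPM in the same order. All later libraries were above all day 0 libraries. The day 4 log2 fold change was 2.80 (SE 0.39, adjusted p = 0.000248, limma) in wild type and 2.99 (SE 0.39, adjusted p = 0.000185, limma) in SOX21-/-. HIST1H4K, which encodes the same protein from the same region of chromosome 6, had 13.04, 8.18, 6.52 and 6.89 TPM at day 0 and was listed at 0 in all 8 later libraries. It was the 1 gene called lower in both genotypes, but it reached the filter only through day 0, so that call is no test and these values stand as a description. Every 50-base window of the HIST1H4K model also occurs in another gene, chiefly HIST1H4J, and 81.2% of the HIST1H4J windows are shared in turn, so the division of reads between them is uncertain. Their sum was 24.3, 18.8, 20.8 and 12.1 TPM at day 0, 86.3, 77.8, 92.1 and 63.6 TPM at day 4, and 43.9, 71.5, 40.7 and 40.5 TPM at day 8. The sum kept the order of days, with no day 4 library overlapping day 0. At day 0 the sum was above HIST1H4J alone in every library, and at day 4 it was the same. The sum therefore rose less than HIST1H4J alone. The log2 fold changes above hold for HIST1H4J alone, and the sum was not tested.

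HIST4H4, the H4 gene alone on chromosome 12, had 1.49, 1.49, 1.99 and 1.09 TPM at day 0 in WT1, WT2, S13 and S23. At day 4 the values were 9.19, 11.1, 3.38 and 8.40 TPM, and at day 8 they were 4.89, 4.88, 3.23 and 4.50 TPM. Its windows are shared for 0.188%, so that this rise (2.15, SE 0.34, adjusted p = 0.000571 in wild type; 1.36, SE 0.34, adjusted p = 0.00819 in SOX21-/-, limma) did not rest on a near-identical copy. The SOX21-/- call was lost in 3 of 11 other settings, among them median-of-ratios scaling (adjusted p = 0.271, limma). It was also lost without the S23 library of day 0. HIST1H4I rose as well, from 0.263 to 0.909 TPM at day 0 to 2.51 to 5.34 TPM at day 4.

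HIST1H4D was seen almost only at day 8. It was listed at 0 in all day 0 libraries and in WT1, WT2 and S23 of day 4, with 1.05 TPM in S13. At day 8 it had 4.92, 5.65, 3.25 and 5.96 TPM in WT1, WT2, S13 and S23, all above every earlier library. It reached the filter only through day 8, the day where it was high, so its calls in both genotypes are no test and the values stand as a description. No 50-base window of its 312-base model occurs in another gene.

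In each genotype 1 of 10 tested H2B genes was called higher and 1, HIST1H2BK, lower at day 8 than at day 4. Of all genes, 12.6% in wild type and 26.1% in SOX21-/- were called in either direction in that step. HIST1H2BK, which made up 46.2% of H2B, was highest at day 4. It had 8.01, 8.65, 2.78 and 4.21 TPM at day 0 in WT1, WT2, S13 and S23, then 27.7, 37.4, 33.6 and 30.1 TPM at day 4, and 8.53, 13.5, 9.53 and 8.34 TPM at day 8. It rose by 1.83 (SE 0.24, adjusted p = 0.000171) in wild type and 2.88 (SE 0.24, adjusted p = 1.26e-05) in SOX21-/- on the log2 scale, and then fell by 1.5 (adjusted p = 0.00734) and by 1.73 (adjusted p = 0.00193), all by limma. With median-of-ratios scaling the wild-type rise was 0.48 (adjusted p = 0.151), and the wild-type fall was lost without the WT2 library of day 4 and when only the groups compared were fitted (adjusted p = 0.113). Of its windows 74.1% occur also in H2BFS, which had 0.155 to 1.20 TPM. HIST1H2BD had 2.05, 2.01, 3.06 and 3.11 TPM at day 0, 7.13, 11.1, 12.8 and 7.15 TPM at day 4 and 2.93, 5.28, 4.52 and 5.05 TPM at day 8. It rose at day 4 by 1.71 (SE 0.31, adjusted p = 0.00128) and 1.37 (SE 0.31, adjusted p = 0.00477, limma). Both of its calls were lost with median-of-ratios scaling (log2 changes 0.58 and 0.35) and with quantile normalization. HIST1H2BK and HIST1H2BD were the 2 of 48 genes whose day 8 libraries all lay below all day 4 libraries, 4.17% against 8.47% of all genes.

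HIST1H2BH went the other way in wild type. Its level was 0.450, 0.783, 0.628 and 0.849 TPM at day 0 and 3.59, 2.77, 3.62 and 3.46 TPM at day 4. At day 8 the wild-type libraries had 5.96 and 7.24 TPM, above the 3.57 and 3.51 TPM of S13 and S23. It rose at day 4 in both genotypes (1.37 and 1.39, SE 0.19, adjusted p = 0.000266 and 0.000276, limma) and again at day 8 in wild type (0.86, SE 0.19, adjusted p = 0.0255, limma). That last call was lost in 5 of 11 other settings and without either wild-type library of day 4 or of day 8. With the line label as a block it did not pass (adjusted p = 0.0611, limma). The day 8 difference between genotypes did not pass (log2 change -0.74, SE 0.19, adjusted p = 0.0933, limma).

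**Figure D3:**
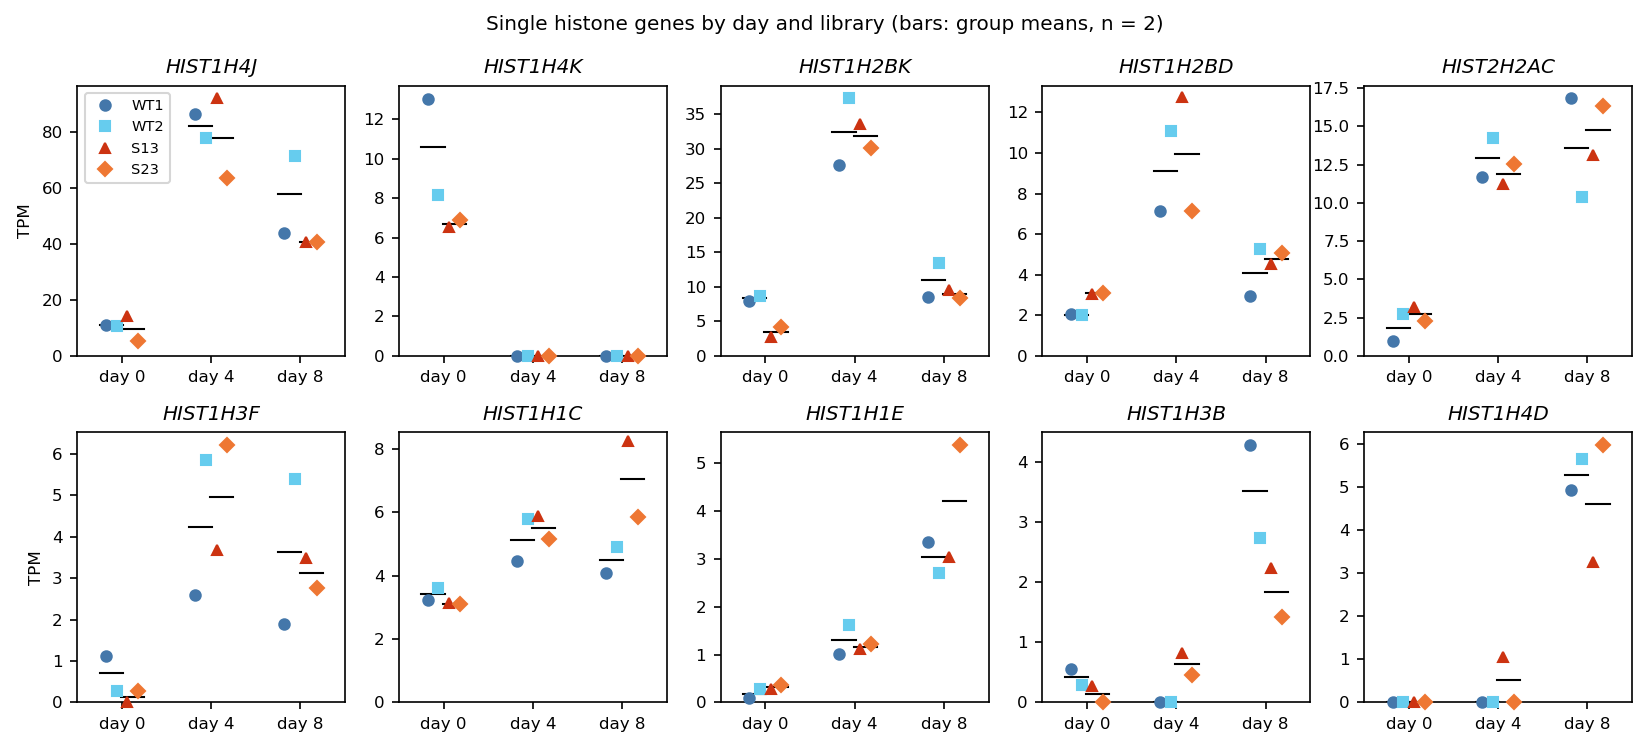
TPM (vertical axes, each from 0 with its own scale) of 10 histone genes by day, with 1 point per library and black bars for the mean of 2 libraries. HIST1H4J, HIST1H2BK and HIST1H2BD are highest at day 4, HIST1H4K is above 0 only at day 0, and HIST1H1E, HIST1H3B and HIST1H4D are highest at day 8.

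Among H2A genes, HIST2H2AC rose and stayed high. It had 0.975, 2.74, 3.18 and 2.28 TPM at day 0, 11.7, 14.2, 11.2 and 12.5 TPM at day 4 and 16.8, 10.4, 13.2 and 16.3 TPM at day 8 in WT1, WT2, S13 and S23. The day 4 change was 2.35 (SE 0.33, adjusted p = 0.000232) in wild type and 1.80 (SE 0.33, adjusted p = 0.00131) in SOX21-/-, by limma, and the latter was lost with median-of-ratios scaling (adjusted p = 0.106). Of its windows 30.5% occur in other genes, chiefly HIST2H2AA3. HIST2H2AA3 and HIST2H2AA4 share nearly all windows and are given as a pair, which summed to 2.22 to 3.35 TPM at day 0, 6.07 to 9.19 TPM at day 4 and 11.6 to 17.3 TPM at day 8, with no overlap between days. HIST3H2A was at 2.83 to 3.16 TPM at day 0, 3.07 to 7.46 TPM at day 4 and 5.37 to 8.88 TPM at day 8 and passed no test.

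H3 genes were low, and those that changed did so on different days. HIST1H3F had 1.12, 0.282, 0 and 0.279 TPM at day 0, 2.60, 5.85, 3.69 and 6.21 TPM at day 4 and 1.88, 5.40, 3.48 and 2.76 TPM at day 8. It rose at day 4 in wild type (1.59, SE 0.47, adjusted p = 0.0156, limma) and in SOX21-/- (2.36, SE 0.47, adjusted p = 0.00224, limma). The wild-type call was lost in 4 of 11 other settings, among them per nuclear protein-coding TPM (adjusted p = 0.0506, limma). It was also lost without the WT2 library of day 0 or of day 4. HIST1H3B was listed at 0 in both wild-type libraries of day 4 and had 4.28 and 2.75 TPM in WT1 and WT2 at day 8. In S13 and S23 it had 0.829 and 0.449 TPM at day 4 and 2.24 and 1.42 TPM at day 8. It reached the filter only through day 8, so its call in wild type is no test. HIST1H3J rose in wild type at day 8, from 0 and 0.438 TPM to 1.83 and 3.48 TPM (1.57, SE 0.38, adjusted p = 0.0337, limma). It lost that call in 6 of 10 other settings and without any 1 of these 4 libraries. In S13 and S23 it had 1.19 and 1.71 TPM at day 4 and 0.421 and 0 TPM at day 8. HIST3H3, described mainly in testis, had 0.871 and 0 TPM at day 4 and 1.84 and 4.26 TPM at day 8 in S13 and S23. It too reached the filter only through day 8, and its call in SOX21-/- was lost in 6 of 10 other settings and 6 of 12 leave-outs. HIST1H3H, the third gene of the class by mean level, was at 0.234 to 2.29 TPM in all libraries and passed no test.

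Linker histone genes, whose proteins bind the DNA between nucleosomes, were led by HIST1H1C. It had 3.22, 3.61, 3.13 and 3.11 TPM at day 0, 4.44, 5.79, 5.88 and 5.14 TPM at day 4 and 4.08, 4.89, 8.25 and 5.84 TPM at day 8 in WT1, WT2, S13 and S23. Its rise at day 4 in SOX21-/- (0.66, SE 0.20, adjusted p = 0.0181, limma) was smaller than the shift of all genes and turned with median-of-ratios scaling, to -0.35. The call was lost in 4 of 11 other settings and without either SOX21-/- library of day 0 or S13 of day 4. HIST1H1E increased over both steps, with 0.0896, 0.272, 0.270 and 0.358 TPM at day 0, 1.004, 1.61, 1.11 and 1.22 TPM at day 4 and 3.36, 2.71, 3.05 and 5.38 TPM at day 8. No day overlapped another. The day 8 change was 1.23 (SE 0.26, adjusted p = 0.0110, limma) in SOX21-/- and 0.81 in wild type, where it did not pass. The SOX21-/- call was lost in 2 of 10 other settings and without S13 of day 4 or S23 of day 8. HIST1H1D was at 0 to 0.218, 0.156 to 0.756 and 0.616 to 2.70 TPM on the 3 days and passed no test. The replication-independent linker gene H1F0, known for rising as cells stop dividing, had at day 8 150 and 109 TPM in wild type and 522 and 383 TPM in SOX21-/- (1.80, SE 0.27, adjusted p = 0.0126, limma).

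From day 4 to day 8 the calls were few. In wild type 4 histone genes rose and 1 fell, 10.4% against 12.6% of all genes, and in SOX21-/- 4 rose and 1 fell, 10.4% against 26.1%. Under median-of-ratios scaling the split was 2 and 1 in wild type and 3 and 2 in SOX21-/-, and under quantile normalization 2 and 2, and 2 and 4. Without the WT2 library of day 4 the wild-type count was 2, without WT1 of day 4 or WT2 of day 8 it was 3, and without either SOX21-/- library of day 4 it was 8. Without S23 of day 8 the SOX21-/- count was 3. HIST1H2BK fell in both genotypes. Of the 5 calls in each genotype, 2 were of genes that reached the filter only through day 8, HIST1H3B and HIST1H4D in wild type and HIST3H3 and HIST1H4D in SOX21-/-. All 4 day 8 libraries were above all 4 day 4 libraries for 4 of the 48 genes, HIST1H1E, HIST1H3B, HIST1H4D and HIST2H2AA3, or 8.33% against 17.7% of all genes.

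Between genotypes, almost no histone gene passed. At day 0, 0 of 48 did (0.384% of all genes), with 2 at an unadjusted p below 0.05, and at day 4, 0 of 48 did (0.775% of all genes), with 3 at an unadjusted p below 0.05. At day 8, 1 did, 2.08% against 2.79% of all genes, with 8 at an unadjusted p below 0.05. The share of all genes at that unadjusted p is not given, so no excess is read from these counts. The libraries labelled SOX21-/- lay wholly above wild type for 7 of the 48 at day 4 (14.6%, and 11.1% of all genes) and wholly below for 3 (6.25%, and 33.8% of all genes). They lay wholly above for 5 of the 48 at day 8 (21.4% of all genes did) and wholly below for 12 (21.7% of all genes), the latter including HIST1H2BH, HIST1H3B, HIST1H3J, HIST1H4J and HIST4H4.

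The gene that passed was HIST2H2BE, whose long polyadenylated transcript has been described in differentiated cells. It had 0.661, 0.593, 0.686 and 0.801 TPM at day 0 in WT1, WT2, S13 and S23 and 1.64, 2.39, 1.20 and 1.20 TPM at day 4. At day 8 it had 1.49 and 1.37 TPM in wild type and 3.60 and 5.82 TPM in SOX21-/-. The day 8 difference was 1.21 (SE 0.23, adjusted p = 0.0341, limma), and the order of genotypes at day 4 was the opposite, without passing. The call was lost with a pseudocount of 0.1 (adjusted p = 0.0546), with no filter (0.0601), with median-of-ratios scaling (0.0618) and when only the 4 day 8 libraries were fitted (0.287). It was also lost without either library of wild-type day 0, SOX21-/- day 0 or wild-type day 8, and without S23 of day 8, 7 of 12 leave-outs. The SOX21-/- rise from day 4 to day 8 was 1.35 (SE 0.23, adjusted p = 0.00462, limma), and the difference between genotypes in that step was 1.65 (SE 0.33, adjusted p = 0.0595, limma), short of the threshold that 1.11% of all genes passed. In that interaction 6 histone genes had an unadjusted p below 0.05, with no share of all genes to set beside it. HIST2H2BE passed it without S13 of day 8 (adjusted p = 0.0460) and when the spread was moderated without a trend (adjusted p = 0.0416). Its divergent neighbour HIST2H2AC, whose promoter stretch overlaps that printed above for HIST2H2BE, did not differ in that way, with 16.8 and 10.4 TPM in wild type and 13.2 and 16.3 TPM in SOX21-/- at day 8.

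**Figure D4:**
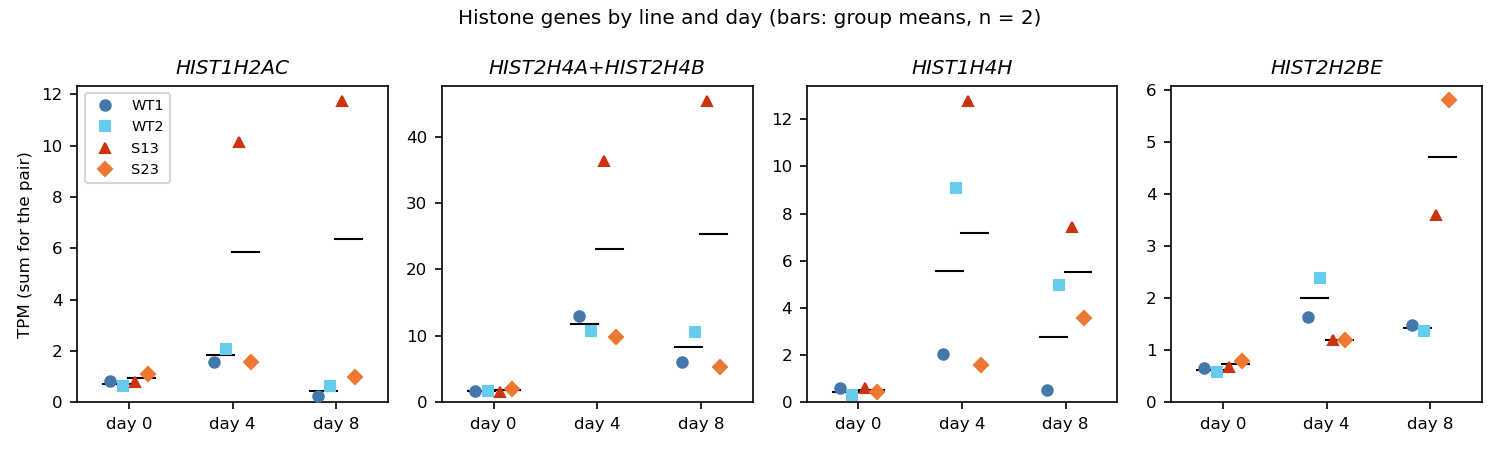
TPM by day of HIST1H2AC, of the HIST2H4A and HIST2H4B pair, of HIST1H4H and of HIST2H2BE, with 1 point per library, black bars for the mean of 2 libraries and axes from 0. S13 (triangles) stands above S23 in the first 3 panels at days 4 and 8, while both SOX21-/- libraries are above wild type for HIST2H2BE at day 8.

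A second pattern separated the 2 SOX21-/- lines from each other. HIST1H2AC, another gene with a described polyadenylated form, had 0.641 to 1.09 TPM in the 4 day 0 libraries. At day 4 it had 10.1 TPM in S13 against 1.58, 2.10 and 1.59 TPM in WT1, WT2 and S23, and at day 8 it had 11.7 TPM in S13 against 0.258, 0.659 and 1.004 TPM. Only 0.421% of its windows occur in another gene. HIST2H4A and HIST2H4B, which share 97.5% and 97.2% of their windows with other genes, chiefly each other, summed to 1.60 to 2.09 TPM at day 0. The pair reached 36.3 TPM in S13 at day 4 beside 12.9, 10.7 and 9.86 TPM in WT1, WT2 and S23, and 45.4 TPM at day 8 beside 6.05, 10.5 and 5.40 TPM. HIST2H4A passed at day 4 in SOX21-/- (adjusted p = 0.0180, limma). It did not pass in 3 of 11 other settings, nor without S13 of that day or either SOX21-/- library of day 0. HIST2H4B passed in wild type at the margin (adjusted p = 0.04996, limma), a call lost in 5 of 11 other settings and 8 of 12 leave-outs. HIST1H4H, chosen for display after its values were seen, had 12.8 TPM in S13 at day 4 and 7.44 TPM at day 8, though WT2 was close with 9.08 and 4.99 TPM. S13 was the highest library on both days for 6 of 48 genes, or 12.5%, namely HIST2H4A, HIST2H4B, HIST3H2A, HIST1H1C, HIST1H2AC and HIST1H4H, beside 6.44% of all genes. With 1 library of S13 a day, line and library cannot be told apart within a day.

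A list of 19 genes for RNAs made without a poly(A) tail gave a partial view of the untailed RNA in each library. It included RN7SL1 and RN7SL2 of the signal recognition particle and RN7SK. The list summed to 203 to 255 TPM at day 0, 530 to 1438 TPM at day 4 and 2046 to 7426 TPM at day 8. RN7SK, RN7SL1 and RN7SL2 gave 7222 of the 7426 TPM in WT2 at day 8. Mitochondrial tRNAs, outside the list, went the other way, at 6.57 to 8.40% of TPM at day 0 and at most 0.0713% later. The list therefore gives no direction across days for untailed RNA as a whole. Within day 4 the highest sum was that of S13 (1438 TPM), which also had the highest histone sum (303 TPM) and was the highest library for 24 of the 48 histone genes, against 18.3% of all genes. Within day 8 the highest was WT2 (7426 TPM), which had the highest histone sum (249 TPM), the most histone genes at or above 1 TPM (43, beside 28 to 36 in the others) and the highest value for 23 of the 48, against 23.5% of all genes. The other libraries did not follow the same order. S23 had the second highest untailed sum at day 8 (3672 TPM) and a histone sum of 168 TPM, while S13 had the lowest (2046 TPM) and a histone sum of 228 TPM. HIST1H2AC and the HIST2H4A pair were at least as high in S13 at day 8 as at day 4. The untailed sum of S13 was 1438 TPM at day 4, the highest of that day. At day 8 it was 2046 TPM, higher than at day 4 but the lowest of its day, close to 2099 TPM in WT1. From day 4 to day 8 the untailed sum was higher in every line while the histone sum was lower in 3 lines and close to equal in WT2 (249 TPM on both days). Every library was poly(A)-enriched, so these sums do not measure carry-over into the histone values. Its part in them was not tested.

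**Figure D5:**
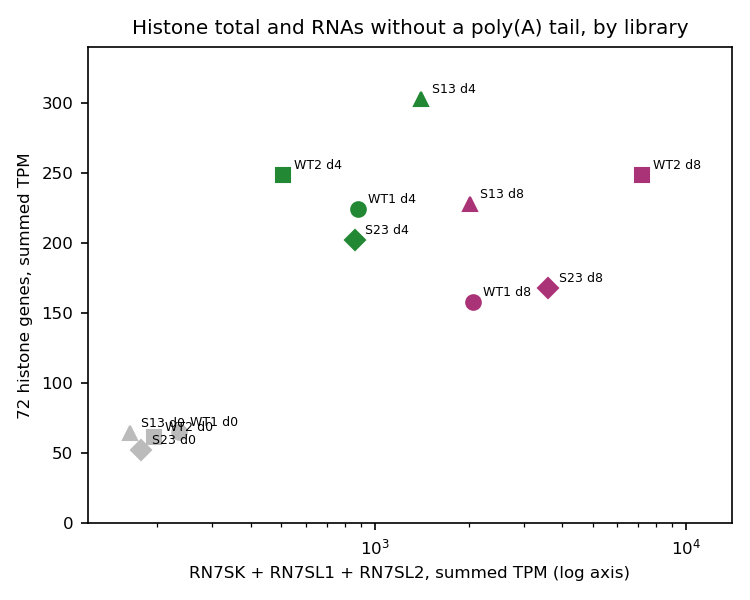
Summed TPM of the 72 histone genes (vertical axis, from 0) against the summed TPM of RN7SK, RN7SL1 and RN7SL2 (horizontal axis, logarithmic), with 1 point per library, shape by line and colour by day (grey day 0, green day 4, purple day 8). S13 at day 4 and WT2 at day 8 are the highest of their day on both axes, while day 8 as a whole lies to the right of day 4 without higher histone sums.

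Of the 5 cluster genes with described polyadenylated forms, HIST1H1C, HIST1H2AC, HIST1H2BD, HIST1H2BK and HIST2H2BE, 3 rose at day 4 in each genotype, near the 54.3% and 48.1% of all genes that did. Together they held 10.4 to 15.5 TPM at day 0, 42.4 to 63.6 TPM at day 4 and 17.3 to 37.7 TPM at day 8. No day 0 library overlapped a later one, and all day 8 libraries were below all day 4 libraries. At day 8 they diverged, HIST1H2BK falling in both genotypes and HIST2H2BE rising in SOX21-/-.

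Genes that make and process histone mRNA were read on the same days, with no test of one list against another. Of 13 genes for histone transcription and 3′ processing, 13 rose at day 4 in wild type and 12 in SOX21-/-, with medians of 1.47 and 1.5, beside 54.3% and 48.1% of all genes rising. SLBP, the hairpin-binding protein, had 21.1 to 25.4 TPM at day 0 and 58.5 to 75.2 TPM at day 4, and NPAT, the histone gene coactivator, rose by 1.47 in wild type (SE 0.17, adjusted p = 6.63e-05, limma). Of 18 chaperone and assembly genes, 16 rose and 2 fell in wild type and 16 rose and 1 fell in SOX21-/-. Of 11 tested replication-independent variants, 10 rose in each genotype, with medians of 1.84 and 1.82.

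Cluster histone synthesis is known to be coupled to DNA replication. Of 20 S phase genes 18 rose at day 4 in each genotype, beside 54.3% and 48.1% of all genes. From day 4 to day 8, none rose, 6 fell in wild type and 14 in SOX21-/-, where 12.6% and 26.1% of all genes were called in either direction. The 48 histone genes gave 4 higher and 1 lower in each genotype. In each, 2 of the higher calls were of genes that reached the filter only through day 8 and are no test, so no contrast is drawn from these counts. At day 8, 7 of the 20 were lower in SOX21-/- than in wild type (2.79% of all genes were called), namely MCM2, MCM3, MCM4, MCM6, MCM7, GINS2 and PCNA. PCNA, the sliding clamp of DNA polymerase, had 282 and 312 TPM in WT1 and WT2 and 206 and 167 TPM in S13 and S23 (log2 difference -0.68, SE 0.12, adjusted p = 0.0283, limma). In bulk RNA, fewer cells in S phase and less transcript per such cell cannot be told apart. The median difference of the S phase list at day 8 was -0.44 and that of the 48 histone genes -0.08, beside 0 over all genes, and none of the interaction terms of the 20 genes passed.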

How the data were processed

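RNA of 12 libraries had been enriched by poly(A) tails, per the labels' protocols, which name paired reads of 100 or 150 bases or reads of 50 bases without saying which library had which. The values are TPM per gene that the authors deposited in 1 table. Per the submitters' processing notes Salmon 0.8.2, CASAVA 1.7 and hg38 were used. Annotation release and strand setting are not given in the sources used here. TPM keeps no read depth, so no counting error can be given. Values were taken as log2(TPM + 1), which understates changes of low genes. Genes with at least 1 TPM in at least 2 libraries were fitted with limma 3.58.1 (R 4.3.3) over the 6 groups, with a mean-variance trend and Benjamini-Hochberg adjustment over all 24248 genes at 0.05. The script was tested on simulated data. Genes named with all values were the 3 with the highest mean TPM of each class, all called between genotypes, up to 5 called each way per day step, and the 5 polyadenylated-form genes. The members and gene lists were chosen with earlier results of these data known. Window sharing was counted on GENCODE transcripts, and HIST1H3D's second identifier was not matched there. Across genes, same-numbered libraries showed little common deviation (correlations of deviations -0.0195 to 0.0774), so the main fit is unpaired. Single genes such as HIST1H2AC were high in S13 at both day 4 and day 8. The main fit takes libraries of 1 line as independent. Alternatives changed the pseudocount, filter, scaling, moderation, libraries fitted, block and each library in turn.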

Additional observations from a re-analysis of the deposited data

How the results depend on the processing

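TPM gives no read numbers, so what depth limits was not measured, and most members lie near the filter. At day 8 the genotype count of 1 was 0 with a pseudocount of 0.1, a filter at 5 TPM, no filter, median-of-ratios scaling or only the groups compared, and 0 to 1 over the leave-outs. The wild-type day 4 count of 14 was 9 with the filter at 5 TPM, 9 under quantile normalization and 7 with median-of-ratios scaling (leave-outs 10 to 16), and the SOX21-/- count of 15 was 7 and 5 under those scalings (leave-outs 8 to 21, the lowest without the S23 library of day 0). From day 4 to day 8 the wild-type count of 5 was 3 with the pseudocount of 0.1, the filter at 5 TPM or median-of-ratios scaling and 1 with only the groups compared (leave-outs 2 to 8), and the SOX21-/- count of 5 was 2 with the filter at 5 TPM and 1 with only the groups compared (leave-outs 3 to 7). The interaction from day 4 to day 8 gave 1 in place of 0 without the trend (leave-outs 0 to 1), and the remaining genotype counts stayed at 0 under every alternative. Day 4 to day 0 ratios of the summed classes were 1.25 (H1), 1.96 (H2A), 2.51 (H2B), 3.07 (H3) and 3.23 (H4) per nuclear protein-coding TPM and 0.764, 1.20, 1.54, 1.90 and 1.99 with median-of-ratios scaling, where H1 turned, as did the H3 ratio of day 8 to day 4 (0.948) and HIST1H1C at day 4 in SOX21-/- (-0.35). Of 33 calls of named genes, 11 held under every alternative. Calls were lost in 63 of 353 other settings and 50 of 396 leave-outs, and the cause was not tested. With the replicate number as a block the counts were 15 and 16 at day 4, 5 and 6 at day 8 and 1 between genotypes at day 8, and no call named here changed. With the line label as a block, added after seeing the data, they were 17, 17, 4 and 5, and HIST1H2BH in wild type at day 8 (adjusted p = 0.0611), HIST1H1E in SOX21-/- at day 4 (0.0525) and HIST3H3 in SOX21-/- at day 8 (0.0567) lost their calls (limma).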
